A study of Mus musculus with 6 samples.

Results

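This report describes 9 genes for secreted proteins that tie cells to the extracellular matrix or adjust how cells respond to it: Fn1, Tnc, Sparc, Thbs1, Spp1, Postn, Ccn1, Ccn2 and Tgfbi. They were chosen by name. Of the probe sets annotated to a single gene, the brightest on average stood for that gene, and this gave values for 8 of the 9 genes, out of 19937 genes in all. Spp1, the gene for osteopontin, was not analysed here. Each of the 8 genes had 1 such probe set, and no low-value filter was applied.

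The samples were organoids grown from digested mammary glands of female FVB mice of matched age, embedded in growth factor-reduced Matrigel, a basement-membrane gel. All mice carried the doxycycline-inducible knockout of Erbb3 named ErbB3 DOX-KO, so the controls carried it too. The control group (3 arrays) received no doxycycline and the DOX group (3 arrays) received 5 µM doxycycline, and both were cultured for 14 days. The promoter and cell type that drive the inducible deletion, the ages, and whether each replicate came from another mouse are not given in the labels, so p-values measure the spread between these samples, which may be technical. Exposure to the drug and induction of the knockout cannot be told apart in this design. With 3 arrays in each group, precision is limited throughout.

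Fibronectin (Fn1) forms fibrils on cell surfaces that other matrix proteins are built onto, and cells hold it through integrins. Tenascin-C (Tnc), thrombospondin-1 (Thbs1), Sparc, periostin (Postn), the CCN proteins (Ccn1, formerly Cyr61, and Ccn2, formerly Ctgf) and Tgfbi are called matricellular proteins: they bind matrix, growth factors and receptors rather than giving the tissue its mechanical frame. Fn1, Ccn2, Tgfbi and Postn are well-known targets of TGF-beta, and Ccn1 and Ccn2 are standard readouts of the YAP and TEAD transcription factors, which respond to cell shape and stretch. In the mammary gland many of these genes are associated with stroma and with tissue remodelling.

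All values are log2 expression levels on a microarray, and all differences are DOX minus control on that scale, where 1 is a doubling. A difference was called when its limma p-value, adjusted over all 19937 genes by the Benjamini-Hochberg method, was under 0.05. DOX replicate 2 stood apart: its correlation across genes with the other arrays was 0.816 to 0.865, against at least 0.963 among the other 5, and the middle 50% of its genes spanned 2.07 log2 units against 3.05 to 3.32. On that array the dimmest 10% of genes, ranked by control level, had a median difference of 0.84 from the controls, and the brightest 10% a median difference of −1.59. Results are therefore given with all arrays and again without that array, which leaves 2 DOX arrays. Erbb3 itself was not lower in the mean of the DOX arrays. It read 9.78, 9.71 and 9.69 in controls and 10.36, 9.31 and 9.82 in DOX replicates 1, 2 and 3. Only on DOX replicate 2 did it lie below every control. There it differed from the control mean by −0.42, while the brightest 10% of genes, which include it, had a median of −1.59. Erbb3 lay 0.70, 1.17 and 0.21 above the median of those genes on DOX replicates 1, 2 and 3. The limma adjusted p of Erbb3 was 0.845, or 0.105 without DOX replicate 2. Since the labels do not say which exons are deleted, a probe set may lie outside them and check nothing, and directions below follow the arrays as labelled. Among cell type markers, 2 of 13 luminal, 8 of 12 basal and 13 of 17 fibroblast and mesenchymal markers had control levels below the median of all genes.

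Tenascin-C fell and fibronectin rose in the DOX arrays, and these were the calls with all arrays: 1 of 8 genes higher, against 0.12% of all genes, and 1 of 8 lower, against 2.26%. Without DOX replicate 2, Fn1, Thbs1 and Ccn2 were higher and Tnc, Ccn1 and Postn lower, 3 of 8 genes in each direction. Over all genes that fit called 12.3% higher and 14.3% lower. Sparc and Tgfbi were called in neither fit. The median difference of the 8 genes was −0.01 over the 6 arrays and −0.09 when DOX replicate 2 was left out, beside 0.02 and 0.01 over all genes, so the genes did not shift one way as a group. All 3 DOX arrays lay above all controls for 2 of the 8 genes and below them for 3, where 11.7% and 20.3% of all genes did so. With the other 2 DOX arrays alone the counts were 3 and 3, beside 25.4% and 26.2% of all genes.

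**Figure D1:**
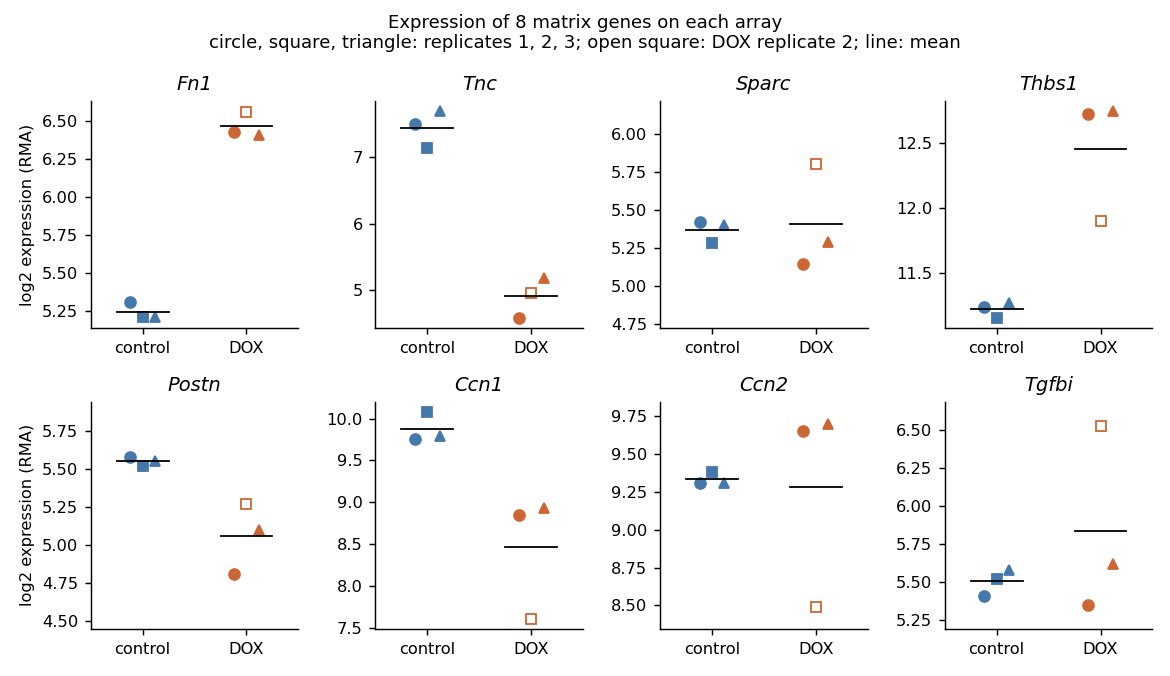
Log2 expression of the 8 measured genes on each array, 1 panel per gene with its own axis, for control and DOX groups; symbols give the replicate and lines the group means. Fn1 and Thbs1 lie above their controls on every DOX array, Tnc, Ccn1 and Postn below, and the open square of DOX replicate 2 lies apart from the other DOX arrays for Thbs1, Ccn1, Ccn2, Tgfbi and Sparc.

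The sequences just upstream of the 3 genes that were lower without DOX replicate 2 are shown because these genes moved in the same direction. They are the 250 bases before the first annotated start of each gene, 5′ to 3′ on the gene's strand, from RefSeq (GRCm38.p6): Tnc at chr4:64047016-64047265 (minus strand), Ccn1 at chr3:145649986-145650235 (minus strand) and Postn at chr3:54359017-54359266 (plus strand). A RefSeq window was matched for 6 of the 9 genes, Spp1 included. Capitals mark matches on either strand to 6 motifs: GGAATG (TEAD), TGANTCA (AP-1), CAGAC (SMAD), TGACGTCA (CRE), TATAAA (the core promoter box of that name) and the CArG box of SRF.
Tnc: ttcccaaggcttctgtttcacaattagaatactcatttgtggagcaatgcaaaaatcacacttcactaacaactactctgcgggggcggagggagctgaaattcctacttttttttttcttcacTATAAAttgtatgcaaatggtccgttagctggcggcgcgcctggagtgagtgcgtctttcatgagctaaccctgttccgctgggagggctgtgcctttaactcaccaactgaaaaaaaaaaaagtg
Ccn1: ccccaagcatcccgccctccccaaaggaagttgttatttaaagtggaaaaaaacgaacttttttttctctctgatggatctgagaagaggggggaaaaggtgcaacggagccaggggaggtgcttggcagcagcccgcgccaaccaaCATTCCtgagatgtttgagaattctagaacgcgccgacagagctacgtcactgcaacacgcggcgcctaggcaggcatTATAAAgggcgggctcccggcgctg
Postn: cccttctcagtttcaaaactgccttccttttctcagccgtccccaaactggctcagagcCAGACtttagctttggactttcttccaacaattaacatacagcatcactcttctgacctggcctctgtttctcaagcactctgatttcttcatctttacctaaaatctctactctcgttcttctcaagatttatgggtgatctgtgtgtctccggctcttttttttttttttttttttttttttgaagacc

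The Ccn1 window held 1 TEAD match, written as its reverse complement and beginning at −103 from the start, and 1 TATA match at −25. The Tnc window held 1 TATA match at −126, and the Postn window 1 SMAD match at −191. None of these matches overlapped another. Among all 32851 windows of 250 bases, 12.6% held the TEAD letters, 12.4% the TATA letters and 42.2% the SMAD letters. AP-1, CRE and CArG letters, found in 6.75%, 1.55% and 1.47% of windows, were in none of the 3. Tnc and Postn each have a second annotated start. The second Tnc window overlaps the first, and its TATA match at −205 is the same letters as the match at −126. It also held a SMAD match at −70. The second Postn window held a TATA match at −26. These matches describe letters in a window and say nothing of a factor's binding.

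Fn1, the fibril-forming adhesive glycoprotein, read 5.31, 5.21 and 5.21 in controls and 6.43, 6.56 and 6.41 in DOX replicates 1, 2 and 3. The groups did not overlap, and DOX replicate 2 lay close to the other DOX arrays. The difference was 1.22 (SE 0.16, limma adjusted p = 0.0169), a 2.33-fold rise, and 1.17 without DOX replicate 2 (SE 0.11, limma adjusted p = 1.92e-05). With all arrays the call was lost when any 1 array other than DOX replicate 2 was left out, while the difference stayed between 1.21 and 1.26. The limma adjusted p was 0.141, 0.154 and 0.16 without control replicates 1, 2 and 3, and 0.0527 and 0.0919 without DOX replicates 1 and 3. Its control level lay below the median of all genes, 5.93, where genes of the same decile of control levels had a median difference of 0.64 on DOX replicate 2. On that array Fn1 was 1.32 above the control mean.

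Tnc, a large hexameric glycoprotein that loosens cell adhesion to fibronectin, showed the widest difference of the 8 genes in both fits. It read 7.50, 7.15 and 7.70 in controls and 4.58, 4.95 and 5.18 in DOX replicates 1, 2 and 3. The highest DOX level, 5.18, lay well below the lowest control level, 7.15. The difference was −2.54 (SE 0.24, limma adjusted p = 0.00526), a 5.83-fold decrease, and −2.57 without DOX replicate 2 (SE 0.19, limma adjusted p = 3.79e-06). On DOX replicate 2 it differed from the control mean by −2.50, against a median of −0.75 for genes of the same decile of control levels. Tnc kept its call in 13 of 15 alternatives with all arrays, and lost it without control replicate 1 (limma adjusted p = 0.0635) and without control replicate 3 (limma adjusted p = 0.0575).

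Thbs1, a trimeric glycoprotein that binds CD36 and CD47 and can activate latent TGF-beta, read 11.24, 11.16 and 11.27 in controls. It read 12.72, 11.90 and 12.74 in DOX replicates 1, 2 and 3, all above the controls. The difference with all arrays was 1.23 (SE 0.27) and was not called (limma adjusted p = 0.0872). Without DOX replicate 2 it rose by 1.51 (SE 0.11, limma adjusted p = 2.88e-06), a 2.84-fold change. On DOX replicate 2 Thbs1 was 0.68 above the control mean although genes of the same decile of control levels had a median difference of −1.59 there. Thbs1 was called in 4 of 15 alternatives with all arrays: without DOX replicate 2, with array weights, after quantile normalization and after cyclic loess. In the other 11, among them median centring (limma adjusted p = 0.141), it was not called, with limma adjusted p up to 0.414.

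**Figure D2:**
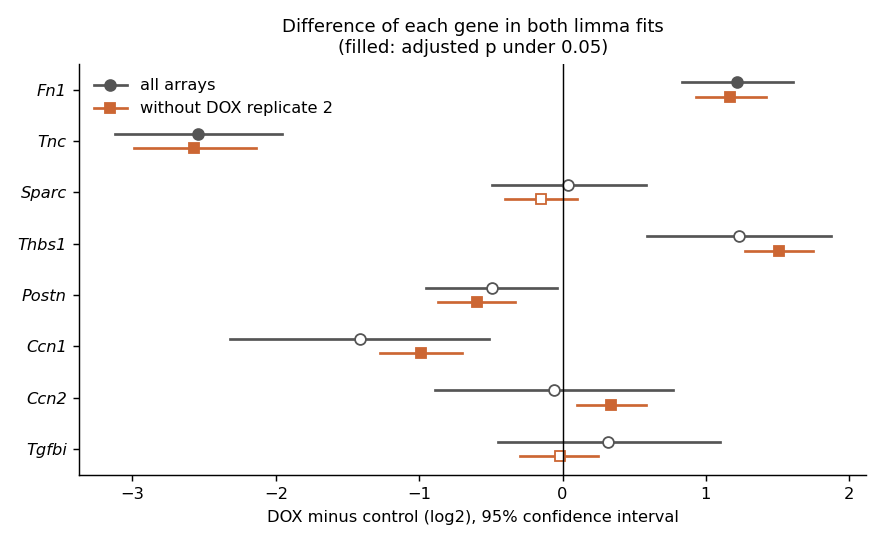
DOX minus control difference (log2) of the 8 genes with its 95% confidence interval, in the limma fit with all arrays (circles) and without DOX replicate 2 (squares); filled symbols passed an adjusted p of 0.05. Fn1 and Tnc are filled in both fits, Thbs1, Postn, Ccn1 and Ccn2 in 1, and Sparc and Tgfbi in neither.

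The CCN genes Ccn1 and Ccn2, which encode related integrin-binding proteins induced rapidly by growth factors and by stretch, differed in how they changed. Ccn1 read 9.76, 10.08 and 9.79 in controls and 8.85, 7.61 and 8.93 in DOX replicates 1, 2 and 3, so that every DOX array was below every control. The difference was −1.41 with all arrays (SE 0.38, limma adjusted p = 0.155, not called). Without DOX replicate 2 Ccn1 fell by 0.99 (SE 0.13, limma adjusted p = 2.23e-04). Ccn1 was called in the same 4 of 15 alternatives as Thbs1, and in the other 11, median centring included (limma adjusted p = 0.262), it was not, with limma adjusted p up to 0.593.

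Ccn2 read 9.31, 9.38 and 9.31 in controls and 9.65, 8.49 and 9.70 in DOX replicates 1, 2 and 3. DOX replicates 1 and 3 were above all controls and DOX replicate 2 below them. For Ccn2 the difference was −0.06 over the 6 arrays (SE 0.35, 95% confidence interval −0.89 to 0.77, limma adjusted p = 0.93). Without DOX replicate 2 it was 0.34 (SE 0.11, limma adjusted p = 0.0409), a 1.26-fold rise. That call was lost when any further array was left out, with limma adjusted p from 0.056 without DOX replicate 1 to 0.128 without control replicate 1. The direction with all arrays turned to 0.34 after quantile normalization and 0.39 after cyclic loess, neither of them called (limma adjusted p = 0.199 and 0.136). With array weights it turned to 0.35 and was called (limma adjusted p = 0.0191).

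The level of Ccn1 minus that of Ccn2 within each array, a quantity formed after the values were seen, was 0.45, 0.69 and 0.48 in controls and −0.80, −0.88 and −0.76 in DOX replicates 1, 2 and 3. The mean was 0.54 ± 0.13 in controls and −0.81 ± 0.06 in DOX arrays (SD, n = 3 each), and DOX replicate 2 lay with the other DOX arrays. Probe sets have no common scale, so the change of this value is what can be read, and it was −1.36, or −1.32 without DOX replicate 2. Tested two-sided by exact permutation, p was 0.1 in both, the smallest such a test can give here. Since the quantity was chosen after its values were seen, these values are a description. They concern the difference between the genes and say nothing of whether either one changed.

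**Figure D3:**
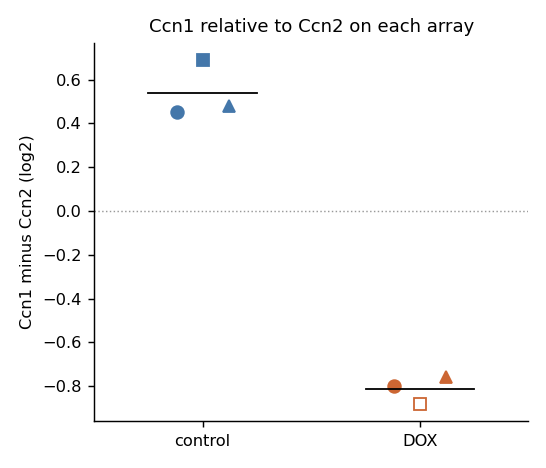
Ccn1 minus Ccn2 (log2) on each array for control and DOX groups; symbols give the replicate (circle 1, square 2, triangle 3, with DOX replicate 2 open) and lines the means. Controls lie between 0.45 and 0.69 and DOX arrays between −0.88 and −0.76.

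Postn and Tgfbi encode a pair of related proteins built of fasciclin domains that bind collagen and integrins. Postn read 5.58, 5.52 and 5.55 in controls and 4.81, 5.27 and 5.10 in DOX replicates 1, 2 and 3, all below the controls. The difference was −0.49 with all arrays (SE 0.19, limma adjusted p = 0.319, not called), and it fell by 0.60 without DOX replicate 2 (SE 0.12, limma adjusted p = 0.00409). Tgfbi read 5.41, 5.52 and 5.58 in controls and 5.35, 6.53 and 5.62 in DOX replicates 1, 2 and 3. Only DOX replicate 2 stood off, 1.02 above the control mean, where genes of the same decile of control levels had a median difference of 0.30. The difference of Tgfbi was 0.32 (95% confidence interval −0.45 to 1.10, limma adjusted p = 0.595) and −0.02 without DOX replicate 2 (95% confidence interval −0.30 to 0.25, limma adjusted p = 0.912).

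Sparc, a collagen-binding protein abundant in connective tissue and basement membranes, read 5.42, 5.28 and 5.40 in controls and 5.14, 5.80 and 5.29 in DOX replicates 1, 2 and 3. The groups overlapped. The difference was 0.04 (95% confidence interval −0.49 to 0.58, limma adjusted p = 0.92) and −0.15 without DOX replicate 2 (95% confidence interval −0.40 to 0.10, limma adjusted p = 0.376). Control levels of Fn1, Sparc, Postn and Tgfbi, and DOX levels of Tnc, lay below the median of all genes. The values carry no detection calls, so differences and folds that involve such levels, those of Tnc included, can be understated.

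**Figure D4:**
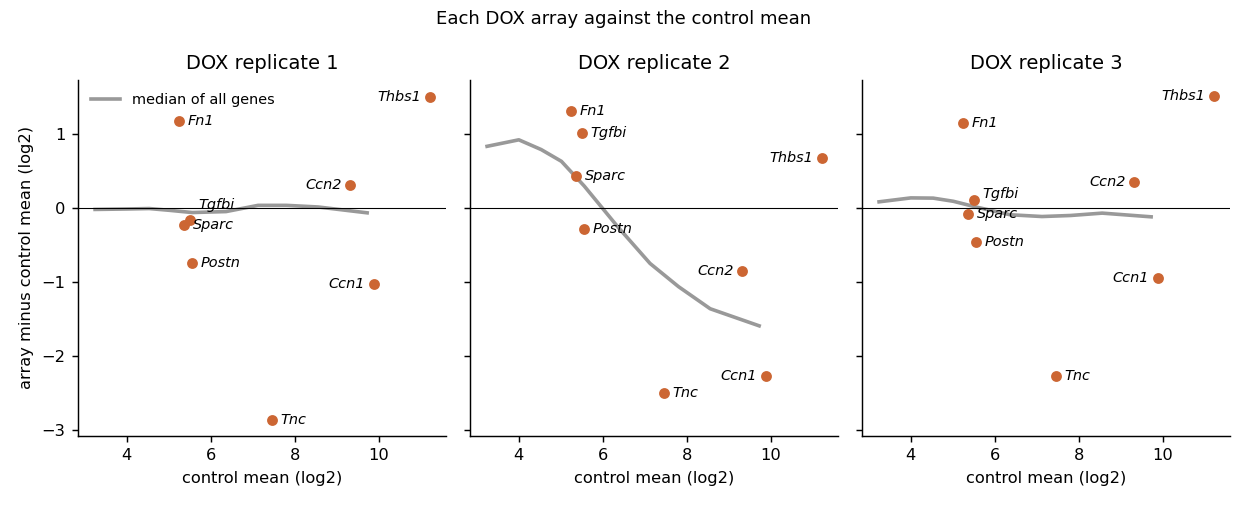
Each DOX array minus the control mean (log2, vertical) against the control mean (log2, horizontal) for the 8 genes (points) and the median of all genes in each decile of control levels (grey line). The grey line is nearly flat for DOX replicates 1 and 3 and falls from 0.84 to −1.59 for DOX replicate 2, where Thbs1 and Ccn2 lie above it and Tnc and Ccn1 below it.

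Each gene was also set against the median of genes in the same decile of control levels on the same array. Fn1 lay 1.21, 0.68 and 1.07 above that median on DOX replicates 1, 2 and 3, Thbs1 1.56, 2.27 and 1.63, and Ccn2 0.37, 0.75 and 0.48. Tnc lay at −2.90, −1.75 and −2.16 from it, Ccn1 at −0.97, −0.68 and −0.83, and Postn at −0.69, −0.58 and −0.47. Sparc (−0.17, 0.13 and −0.09) and Tgfbi (−0.10, 0.72 and 0.09) had both signs. These values are a description and were not tested.

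Genes with the most similar profiles were found as those with the smallest root mean square difference over the 6 arrays, each profile taken relative to its own control mean. Nearest to Fn1 were Hmga2, which encodes a chromatin protein (0.131), and Cgn, which encodes the tight junction protein cingulin (0.148). Hhipl2 (0.152) and Flvcr2 (0.182) were nearest to Tnc, and Gas5 (0.099) and Mgat4b (0.118) to Thbs1. Ccrl2 (0.071) and Dok1 (0.083) were nearest to Ccn1. Plin2 (0.033) and Ostf1 (0.037) were nearest to Ccn2, and Evl (0.065) and Atp5e (0.067) to Postn. The genes named are the nearest of several or many: 8 genes lay within 0.25 of Tnc, 24 of Fn1, 44 of Thbs1, 225 of Ccn1, 842 of Postn and 1813 of Ccn2.

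The counts in the lists that follow are to be read against the shares of all genes called. These were 0.12% higher and 2.26% lower with all arrays, and 12.3% and 14.3% without DOX replicate 2. The list medians are to be read against 0.02 and 0.01. Shares called depend on level. Without DOX replicate 2 there were 2454 higher and 2855 lower calls over all genes, and the brighter 50% alone still gave 2251 and 2770. Medians depended on level on DOX replicate 2 and hardly on DOX replicates 1 and 3. Receptors and luminal markers are bright lists (median control levels 9.38 and 10.57, against 5.93 for all genes). The part of level in their counts was not tested. Receptors of these proteins did not move one way. Of 18 measured receptor genes 3 fell and none rose with all arrays, and 7 rose and 5 fell without DOX replicate 2 (median −0.20 and 0.10). Cd36, a scavenger receptor that binds thrombospondin-1, read 8.38, 7.91 and 8.56 in controls and 3.87, 4.34 and 3.85 in DOX replicates 1, 2 and 3, a difference of −4.27 (SE 0.25, limma adjusted p = 0.00155). On every DOX array Thbs1 was above all its controls and Cd36 below all of its own. Itgb3, a subunit of an integrin that binds fibronectin and other RGD-containing proteins, read 8.37, 8.34 and 8.44 in controls and 5.80, 6.27 and 5.90 in DOX arrays (difference −2.39, SE 0.19, limma adjusted p = 0.003). Sdc1, a heparan sulfate proteoglycan of epithelial cells, fell by 1.36 (SE 0.23, limma adjusted p = 0.0382). Cd36 and Itgb3 kept their calls in all 15 alternatives with all arrays. Sdc1 kept its call in 5 of them and lost it when any 1 array other than DOX replicate 2 was left out (limma adjusted p up to 0.248).

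The following receptor genes were picked for their role after their values were seen. Itga5 and Itgb1 encode the classical fibronectin receptor. Itga5 read 4.18, 4.04 and 4.40 in controls and 5.03, 5.58 and 4.71 in DOX arrays, with no overlap. The difference of Itga5 was 0.90 (limma adjusted p = 0.194), and without DOX replicate 2 it rose by 0.66 (limma adjusted p = 0.00537). Itgb1 was called in neither fit, with differences of −0.18 and 0.12 (limma adjusted p = 0.736 and 0.482). Itgav, the partner of Itgb3, and Cd47, another thrombospondin-1 receptor, were not called with all arrays (limma adjusted p = 0.855 and 0.85), and rose without DOX replicate 2 by 0.71 and 0.59 (limma adjusted p = 0.00143 and 0.00603).

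Genes of TGF-beta signalling moved both ways when DOX replicate 2 was left out, as the 8 genes did. Of 18 ligand, receptor and signal carrier genes none was called with all arrays, and 5 rose and 5 fell without DOX replicate 2 (median −0.11 and 0.10). Tgfb3, a ligand gene, read 11.29, 11.22 and 11.32 in controls and 8.66, 6.91 and 9.25 in DOX replicates 1, 2 and 3. Its difference of −3.0 (SE 0.57) missed the threshold (limma adjusted p = 0.0557), and without DOX replicate 2 it fell by 2.32 (limma adjusted p = 1.77e-06). Tgfbr3, the co-receptor betaglycan, read 7.08 to 7.12 in controls and 9.02, 7.88 and 8.56 in DOX arrays (1.38, limma adjusted p = 0.0875, and a rise of 1.68, limma adjusted p = 8.21e-06, without DOX replicate 2). Without that array Smad3, a signal carrier, rose by 0.78 and Ltbp2, which encodes a latent TGF-beta binding protein family member, fell by 0.95 (limma adjusted p = 3.68e-04 and 2.42e-04). Of 16 measured genes in a list of TGF-beta targets, which shares 5 genes with the 2 lists above (Ltbp2, Smad7, Tgfb1, Itga5 and Itgb6), none was called with all arrays, and 6 rose and 5 fell without DOX replicate 2 (median −0.06 and −0.17). Cdkn2b, a cell cycle inhibitor gene, and Snai2, a repressor of epithelial genes, rose by 0.85 and 1.32 there, and Itgb6 fell by 0.79 (limma adjusted p = 2.43e-04, 8.03e-04 and 3.79e-04).

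The YAP and TEAD list likewise had genes in both directions. None of its 30 measured genes was called with all arrays, and 10 rose and 6 fell without DOX replicate 2 (median −0.14 and 0.04). In that fit Tead4, 1 of the TEAD factors, rose by 0.95, the kinase gene Lats1 by 0.89, Crim1 by 0.94 and Myof by 1.49 (limma adjusted p = 1.38e-04, 2.95e-04, 1.55e-04 and 9.97e-06). Of 21 genes of SRF and its cofactors, Cnn2, an actin-binding calponin gene, fell by 1.70 with all arrays (SE 0.29, limma adjusted p = 0.0389) and none rose. The Cnn2 call was kept in 7 of 15 alternatives with all arrays. The settings that lost it included leaving out any 1 array other than DOX replicate 2 (limma adjusted p up to 0.235). In the fit with 2 DOX arrays, 2 of these genes rose and 4 fell (median −0.16 with all arrays and −0.18 without DOX replicate 2), shares near those of all genes.

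**Figure D5:**
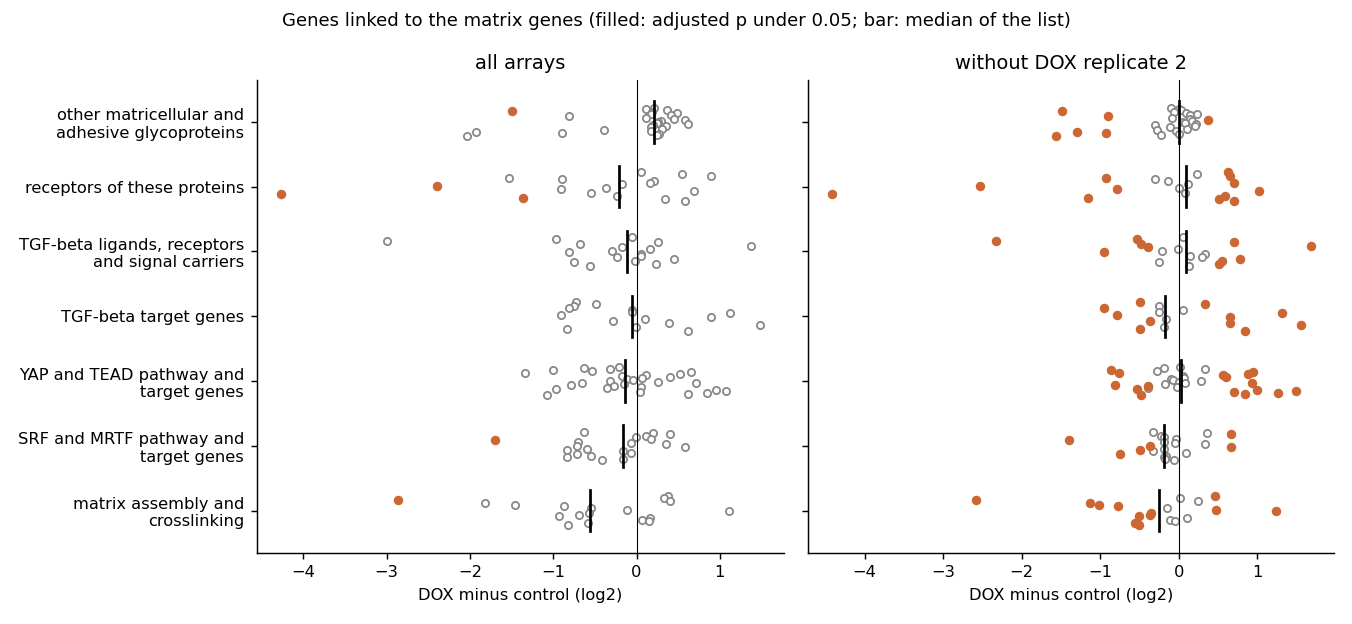
DOX minus control difference (log2) of each measured gene in 7 lists linked to the matrix genes, with all arrays (left) and without DOX replicate 2 (right); filled points passed an adjusted p of 0.05 and bars mark the list medians. With all arrays 6 points are filled, all of them lower, and without DOX replicate 2 filled points lie on both sides in every list.

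The next list holds genes that assemble or crosslink matrix. Of 18 measured, Loxl3, a lysyl oxidase family gene, was called lower with all arrays and none higher, and 9 fell and 3 rose without DOX replicate 2 (median −0.56 and −0.25). Loxl3 read 9.97, 9.94 and 10.02 in controls and 7.04, 6.55 and 7.75 in DOX replicates 1, 2 and 3 (−2.86, SE 0.32, limma adjusted p = 0.00867). Its call was lost without any 1 control (limma adjusted p up to 0.0819). Among 27 other matricellular and adhesive glycoprotein genes, Comp, a thrombospondin family member, fell by 1.49 with all arrays (SE 0.16, limma adjusted p = 0.00876) and none rose. Comp read 6.54, 6.58 and 6.72 in controls and 5.07, 5.13 and 5.18 in DOX arrays, while Thbs1 of the same family was above its controls on each DOX array. The Comp call was kept in 9 of 14 alternatives with all arrays. The settings that lost it included leaving out any 1 control or DOX replicate 3 (limma adjusted p up to 0.0998). In the fit with 2 DOX arrays, 1 of these 27 genes rose and 5 fell (median 0.21 with all arrays and 0.00 without), and 20 of the 27 had control levels below the median of all genes.

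In bulk RNA, fewer cells of a type and less RNA per cell cannot be told apart, so marker genes are given beside these results. Of 17 fibroblast and mesenchymal markers none was called with all arrays, and Twist1 rose (1.02) and Vim fell (−0.63) without DOX replicate 2 (limma adjusted p = 2.22e-04 and 0.022). The Vim call was kept there in 8 of 13 alternatives. The settings that lost it included leaving out control replicate 2 or 3 or either DOX array (limma adjusted p up to 0.0793). The log2 of their summed signal was 9.45 to 9.54 in controls, 9.55 to 9.73 in DOX replicates 1 and 3 and 10.19 in DOX replicate 2. Of 12 basal markers Oxtr, the oxytocin receptor gene, fell with all arrays (−1.91, SE 0.26, limma adjusted p = 0.018), and 3 fell without DOX replicate 2. The Oxtr call was kept in 9 of 15 alternatives with all arrays. The settings that lost it included leaving out any 1 control or DOX replicate 1 (limma adjusted p up to 0.145). The summed basal signal was 11.18 to 11.35 in controls, 10.73 to 11.11 in DOX replicates 1 and 3 and 9.80 in DOX replicate 2. Itga6, also in the receptor list, and Mme weighed most in the control sums and were picked for that after their values were seen. Without DOX replicate 2 Itga6 fell by 0.93 (limma adjusted p = 4.62e-04) and Mme differed by 0.44 (limma adjusted p = 0.071). On DOX replicate 2 they read 7.53 and 7.58, against at least 10.13 and 9.25 in controls. In the fit with 2 DOX arrays 9 of the 12 markers were not called, so this sum does not describe the list as a whole.

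None of 13 luminal markers was called with all arrays, and 2 rose and 5 fell without DOX replicate 2, with Cldn4, a tight junction gene, rising by 1.88 and Krt8, Elf3 and Muc1 falling by 0.74, 0.92 and 1.03 (limma adjusted p = 1.01e-05, 4.94e-04, 1.60e-04 and 4.53e-04). The summed luminal signal was 14.83 to 14.89 in controls, 14.68 to 14.81 in DOX replicates 1 and 3 and 13.71 in DOX replicate 2. Of 11 macrophage and leukocyte markers none was called with all arrays. In the fit with 2 DOX arrays Cd68 and Ptprc rose by 1.01 and 0.38 and Cd14 fell by 1.06 (limma adjusted p = 1.03e-04, 0.0358 and 8.00e-05). The Ptprc call was kept there in 8 of 13 alternatives. The settings that lost it included leaving out control replicate 2 or 3 or DOX replicate 3 (limma adjusted p up to 0.155). The summed signal of these markers was 10.17 to 10.23 in controls, 9.79 to 9.93 in DOX replicates 1 and 3 and 9.24 in DOX replicate 2. Cd14 weighed most in the control sums, reading 9.71, 9.58 and 9.64 there and 8.46, 6.02 and 8.70 in DOX replicates 1, 2 and 3. In the fit with 2 DOX arrays 8 of the 11 markers were not called, so the sum does not describe the list as a whole. None of 10 endothelial or 7 adipocyte markers was called in either fit. Emcn and Kdr differed by 0.65 and 0.62 with all arrays (limma adjusted p = 0.449 and 0.476), and Lep and Retn by 0.50 and 0.79 (limma adjusted p = 0.441 and 0.466). Without DOX replicate 2 the differences of Emcn, Kdr, Lep and Retn were 0.24, 0.20, 0.22 and 0.21. Summed endothelial signal was 8.03 to 8.18 in controls, 8.12 to 8.21 in DOX replicates 1 and 3 and 8.83 in DOX replicate 2, and summed adipocyte signal 7.53 to 7.59, 7.58 to 7.64 and 8.48. The part of any cell type in the differences of the 8 genes was not tested.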

How the data were processed

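RNA of 6 organoid cultures was measured on 1-colour arrays. The authors deposited 1 log2 expression value per probe set and array. RMA and affy are named, without versions, in the submitters' processing notes. RMA normally includes quantile normalization, yet quartiles differ between the deposited columns, and no further scaling was applied here. The sources used here name no genome build for the array.

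Of 34760 probe sets, 21640 had 1 gene symbol in the platform annotation, 1321 had several and 11799 had none here. Those with several or none were left out. Gene identifiers matched to RefSeq (GRCm38.p6) changed 0 symbols. Groups came from the sample titles. Limma 3.58.1 in R 4.3.3 compared DOX with control (lmFit and eBayes, two-sided, no covariates), with Benjamini-Hochberg adjustment over 19937 genes. It was run with all arrays and without DOX replicate 2. It was also tried on simulated independent genes with known changes. That simulation held no outlying array, so it cannot show how the fit handles DOX replicate 2. The alternatives were a block for the replicate number, omission of single arrays, filters that dropped the dimmest 25% or 50% of genes, quantile normalization, median centring, cyclic loess, the mean of a gene's probe sets, array weights, a robust variance trend and other thresholds.

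The genes, lists and tests were chosen with earlier results of these data known. From each list at most 4 genes are named: those with the smallest adjusted p called with all arrays, otherwise those called without DOX replicate 2, otherwise the 2 with the smallest p. For each gene called in either fit the 2 most similar profiles are named. Genes outside this rule are marked in the text. Protein sequences, Stk3, Actg1, Loxl2, Fbn1, Adamts2 and Cfd were not analysed here.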

Additional observations from a re-analysis of the deposited data

How the results depend on the processing

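With all arrays, 1 of the 8 genes was called higher and 1 lower, and over all genes 24 higher and 450 lower. These counts changed with the scaling, the weights, the threshold and the arrays used. Quantile normalization called 2 of the 8 higher and 2 lower (314 and 548 over all genes), cyclic loess 2 and 3 (628 and 1099), and array weights 3 and 3 (3642 and 3752). Leaving out the lowest 50% of genes gave 0 higher, since that filter removed Fn1 itself. An adjusted p under 0.01 gave 0 higher (3 and 165 over all genes), and one under 0.10 gave 2 higher (73 and 669). Leaving out 1 array gave 0 to 3 higher and 0 to 3 lower (2 to 2454 and 61 to 2855 over all genes), the highest counts being those without DOX replicate 2. Without DOX replicate 2 all genes gave 2454 higher and 2855 lower calls, which became 4568 and 2088 after centring, where the median of all genes was 0.14, 3180 and 2705 after quantile normalization, and 1280 and 1913 at an adjusted p under 0.01. Leaving out 1 more array there gave 1550 to 2515 higher calls over all genes. A lone DOX array is assumed to vary like the other arrays.

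With all arrays these differences turned sign. Sparc was −0.05 after quantile normalization, −0.11 after cyclic loess and −0.11 with array weights, and ran from −0.15 to 0.18 when 1 array was left out. Ccn2 was 0.34, 0.39 and 0.35 under the same settings and 0.01 after centring, and ran from −0.27 to 0.34. Itgb1 was 0.18, 0.26 and 0.14 and ran from −0.35 to 0.12. Cd47 was 0.15, 0.21 and 0.45 and ran from −0.74 to 0.59, and the mean of its probe sets gave 0.22. Tgfbi ran from −0.02 to 0.57 and Itgav from −0.18 to 0.71 when 1 array was left out. Without DOX replicate 2, Tgfbi was 0.05 after quantile normalization and 0.11 after centring, and ran from −0.16 to 0.11 when 1 more array was left out. The cause of these turns was not tested.

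The labels do not say whether arrays with the same replicate number belong together. Deviations of same-numbered arrays from their group means correlated at 0.117, 0.194 and 0.085. DOX replicates 1 and 3 gave nearly equal values with control replicates 1 (0.117 and 0.116), 2 (−0.185 and −0.182) and 3 (0.088 and 0.085). These values therefore cannot tell whether the numbers mark pairs. With the replicate block and all arrays, 0 of the 8 genes were called higher and 1 lower (3 and 159 over all genes). With the block and without DOX replicate 2, 2 were higher and 3 lower. The calls lost under the block were those of Fn1 (limma adjusted p = 0.126) with all arrays and of Ccn2 (limma adjusted p = 0.0971) without DOX replicate 2, and array weights also ended the latter (limma adjusted p = 0.0646).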
